A study of Mus musculus and Rattus norvegicus with 6 samples.

Results

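The miRNAs miR-144, miR-451 and miR-486, the most characteristic small RNAs of red blood cells, were followed in small RNA libraries of the rodent retina, where their counts are read as a sign of blood left in the dissected tissue. Every name of miR-144, miR-451 or miR-486, with any letter or arm, was taken from the mouse and the rat table of counts per mature miRNA. This gave 8 of 1915 names in mouse and 5 of 764 in rat, 13 of 2679 in all. The mouse group held 3 retina libraries (m1, m3 and m4) of wild-type C57BL/6 animals and the rat group 3 (r1, r2 and r4) of wild-type Sprague Dawley animals, all 9 weeks old and with no treatment named. Eyes went into RNAlater and the retinas were dissected from them; the protocol text speaks of rat eyes for both species, and whether the vessels were flushed is not given in the sources used here. Strain and table change together with the species, so these cannot be told apart.

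MicroRNAs (miRNAs) are short RNAs cut from a hairpin precursor that repress messenger RNAs, found mainly through the seed (bases 2 to 8). The hairpins of miR-144 and miR-451 lie on 1 transcript that the erythroid factor GATA1 switches on, and miR-451 fills mature red blood cells to a degree that made it a standard sign of haemolysis in plasma. Its hairpin is too short for Dicer and is cut by Argonaute 2 instead, so the mature strand runs into the loop and no ordinary partner strand is made. The third, miR-486, is also abundant in red blood cells, but its host gene Ank1, which encodes a membrane skeleton protein, is used in skeletal and heart muscle as well, so it marks blood less closely.

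The mature mouse sequences are printed because their seeds show whether the members belong to 1 seed family. They come from RefSeq on GRCm38.p6, where 4 of the 8 mouse names had an entry; capitals mark the seed.
mmu-miR-451a: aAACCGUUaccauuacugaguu
mmu-miR-451b: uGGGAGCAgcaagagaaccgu
mmu-miR-144-3p: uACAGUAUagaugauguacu
mmu-miR-144-5p: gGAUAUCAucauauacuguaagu
The 4 seeds differ from each other, and none occurred in another of the 1679 mature mouse names of that table (0 others each). The mature strands lie at chr11:78073186-78073207 on the plus strand (miR-451a), chr11:78073219-78073239 on the minus strand (miR-451b), chr11:78073047-78073066 (miR-144-3p) and chr11:78073010-78073032 (miR-144-5p), the last pair on the plus strand. The other 4 mouse names are mmu-miR-486a-5p, mmu-miR-486a-3p, mmu-miR-486b-5p and mmu-miR-486b-3p.

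The 2 hairpins of the cluster are printed to show their different build, with the mature strands in capitals.
Mir144 hairpin: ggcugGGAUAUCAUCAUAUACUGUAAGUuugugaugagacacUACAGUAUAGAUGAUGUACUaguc
Mir451a hairpin: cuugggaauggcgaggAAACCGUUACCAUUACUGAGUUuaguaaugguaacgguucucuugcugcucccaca
The Mir144 hairpin has a strand on each side of the loop, whereas the Mir451a hairpin has 1 strand, from base 17 to base 38 of 72. They occupy chr11:78073005-78073070 and chr11:78073170-78073241 on the plus strand, 99 bases apart. In the GENCODE annotation of the same build no other gene overlaps Mir144, and Mir451a overlaps only Mir451b, which is its exact reverse complement on the other strand. The Mir486 hairpin lies in an intron of Ank1 on the same strand, and the miR-486b hairpin (Mir3107) lies within it on the opposite strand.

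The libraries held 24169628 to 30514632 counts, and the tissue label held by its own miRNAs: the photoreceptor miRNAs miR-183-5p, miR-182 and miR-96-5p took 360641 to 488361 counts per 1000000 (CPM) of all counts. The columns carry numbers that the sample labels do not, so each was assigned to its species only. The labels speak of biological triplicates but do not tie a library to an animal, so each p-value reflects only how far these libraries spread, in which technical spread may have a share. Rat library r1 stood apart from r2 and r4 in the whole profile, and its normalization factor was 0.765 against 1.35 and 1.29. Intervals and floors cover counting error only, and PCR copies of 1 molecule are counted as if they were separate.

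Against the photoreceptor level the blood miRNAs were rare. The cluster of miR-451 and both miR-144 arms together had 350, 392 and 292 counts in m1, m3 and m4, or 10.4 to 12.8 CPM of all counts. In r1, r2 and r4 it had 20, 121 and 59 counts, or 0.827, 4.78 and 2.09 CPM. Each mouse library thus lay above each rat library, and within the rats r2 held the most and r1 the least. In these bulk samples fewer red blood cells and less RNA per cell cannot be told apart.

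**Figure D1:**
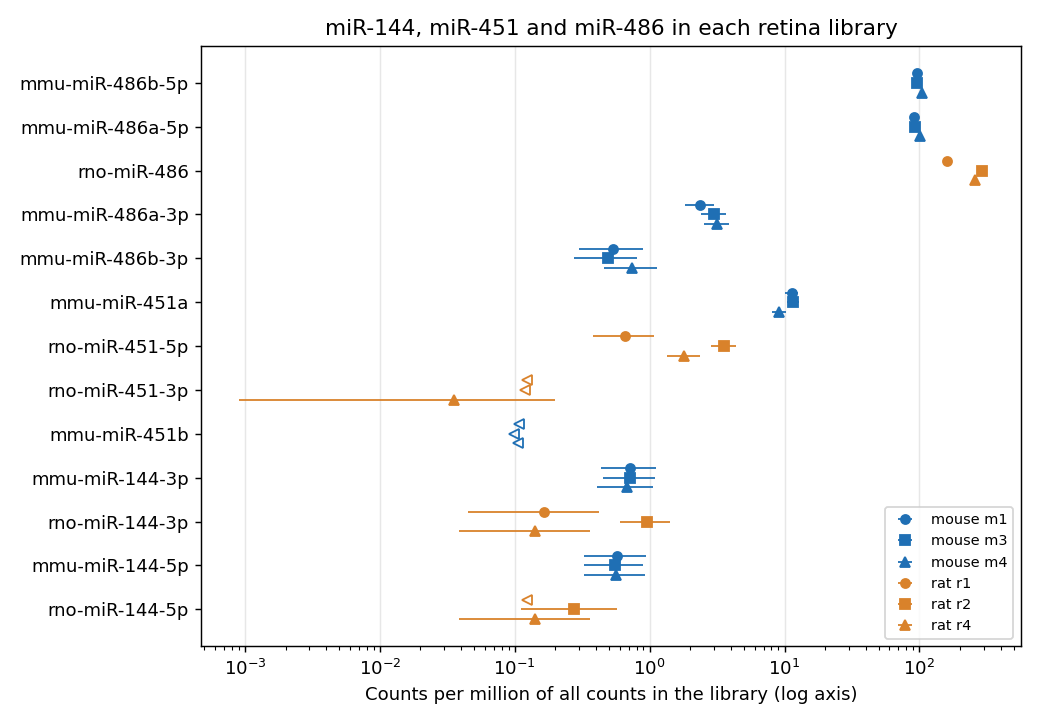
CPM of all counts in the library (log axis) for each of the 13 names, with mouse libraries in blue and rat libraries in orange; bars are exact 95% Poisson intervals and open triangles mark the floor of 3 counts where the count was 0. The miR-486 5p names lie highest in both species, and rno-miR-451-5p lies to the left of mmu-miR-451a in each library.

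The red cell miRNA miR-451 was clearly lower in the rat retina. Mouse miR-451a had 314, 353 and 257 counts in m1, m3 and m4, and ranked 306 of 1915 names by mean CPM. The matching rat name, miR-451-5p, had 16, 90 and 51 counts in r1, r2 and r4, and ranked 394 of 764. On normalized counts (CPM of the names joined between the tables, scaled with TMM factors) this was 17.7, 17.2 and 13.7 in mouse against 1.36, 3.79 and 2.08 in rat, so the highest rat library lay well below the lowest mouse library. The means were 16.2 ± 2.16 and 2.41 ± 1.25 (SD, n = 3 each), a log2 difference of -2.70 ± 0.34 (SE). The adjusted p was 0.000546 (edgeR quasi-likelihood test, Benjamini-Hochberg over 400 tested names). In that comparison 50.2% of all tested names were called at an adjusted p under 0.05, 24.2% as lower and 26% as higher in rat. Without r1 the difference was -2.46 ± 0.24 (adjusted p = 8.88e-06, edgeR).

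The size of this difference was far from that of a typical name. Over all tested names the median log2 difference was 0.11 and the median size 0.64. Scaled by library totals alone the median of all names moved to 0.43 and miR-451 to -2.31, so relative to the median miR-451 stood at -2.81 with TMM factors and -2.73 without.

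The other miR-451 names were at or near 0. Mouse miR-451b, from the strand opposite miR-451a, had 0 counts in m1, m3 and m4; a floor of 3 counts corresponds to 0.108, 0.0983 and 0.106 CPM in this order, and the exact 95% Poisson upper limits are 0.132, 0.121 and 0.131 CPM. Rat miR-451-3p, from the other side of the hairpin, had 0, 0 and 1 count in r1, r2 and r4. In rat all but that 1 count of miR-451 stood under the 5p name; the mouse table names no arm for miR-451a.

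The arms of miR-144, the partner of miR-451 on the same transcript, were close to the detection limit. The 3p arm had 20, 22 and 19 counts in mouse m1, m3 and m4. In rat it had 4, 24 and 4 counts in r1, r2 and r4, with exact 95% Poisson intervals of 1.09 to 10.2 around each 4 and of 15.4 to 35.7 around 24. Library r2 thus held as many reads as a mouse library while r1 and r4 held few.

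With normalized counts the 3p arm stood at 1.07 ± 0.0564 in mouse and 0.505 ± 0.448 in rat (n = 3 each, SD). The log2 difference of -1.02 ± 0.56 (SE) was not called (adjusted p = 0.164, edgeR). Library r2 decided this: without it the difference was -2.24 ± 0.47 and was called (adjusted p = 0.00642, edgeR). Without r1 it was -0.87 and not called. By normalized CPM r2 lay just under the lowest mouse library (1.01 in both after rounding), but by CPM of all counts it lay above all of them, at 0.949 against 0.674 to 0.721.

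The 5p arm of miR-144 had 16, 17 and 16 counts in m1, m3 and m4, and 0, 7 and 4 in r1, r2 and r4. The 0 in r1 has a floor of 0.124 CPM (3 counts) and an exact 95% Poisson upper limit of 0.153 CPM, both under the mouse values of 0.557 to 0.575 CPM of all counts. The log2 difference was -2.22 ± 0.53 (SE), called lower in rat (adjusted p = 0.0100, edgeR). Scaled by library totals alone it was -1.86 with an adjusted p of 0.0524 and not called. Without r1 it was -1.89 and called. Both arms entered the test through the mouse libraries, since all 3 mouse libraries passed the minimum level of 0.514 CPM of the joined names for each arm, against 1 rat library for the 3p arm and 0 for the 5p arm. With 0 rat libraries over that level, the 5p arm had to be lower in rat, so its call adds little to its counts. For the 3p arm this way of entry favoured a lower rat level without forcing it.

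The arms of the miR-144 hairpin were kept about equally in mouse. The 3p arm had 1.25, 1.29 and 1.19 times the counts of the 5p arm in m1, m3 and m4. In rat it had 3.43 times in r2 and equal counts in r4, while r1 had no 5p count. The planned test of arm use could not be run for this hairpin, because its arms summed to 4 counts in the lowest library, under both minimums of 50 and 10.

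**Figure D2:**
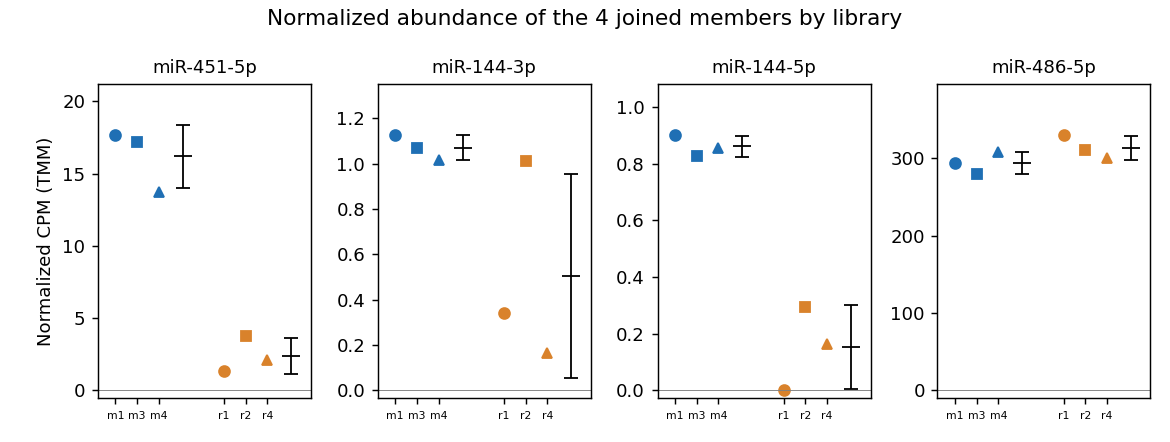
Normalized CPM (TMM, linear axis) of the 4 joined members in each library, mouse in blue and rat in orange; black bars give the mean ± SD of 3 libraries. Rat miR-451-5p reaches 3.79 at most (rounded) against at least 13.7 in mouse, while miR-486-5p lies between 279 and 330 in all 6 libraries.

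The 5p strand of miR-486, the most abundant of the set, did not follow the cluster. Mouse mmu-miR-486a-5p had 2555, 2809 and 2829 counts in m1, m3 and m4, and mmu-miR-486b-5p had 2665, 2934 and 2943. Rat miR-486, listed without an arm, had 3892, 7360 and 7338 counts in r1, r2 and r4. The rat name ranked 113 of 764, and the mouse names 148 (miR-486a-5p) and 146 (miR-486b-5p) of 1915.

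How the mouse names are joined sets the species difference. With miR-486a-5p and miR-486b-5p summed, normalized CPM was 294, 279 and 308 in m1, m3 and m4 and 330, 310 and 300 in r1, r2 and r4, with overlapping groups. The means were 294 ± 14.3 and 313 ± 15.5, with 3 libraries and the SD in each case, and the log2 difference of 0.09 ± 0.12 (SE) was not called (adjusted p = 0.535, edgeR), close to the median of all names at 0.11. Without r1 it was 0.050 and not called. With miR-486a-5p alone the log2 difference was 1.09 ± 0.13, and with miR-486b-5p alone 1.03 ± 0.13, both called higher in rat (adjusted p = 0.000195 and 0.000281, edgeR). None of these 3 joins gave a value below 0. A sum is right if each read was counted under 1 name, and a single name if each read was counted under both.

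The counts of the mouse copies bear on that choice without settling it. In each library miR-486b-5p exceeded miR-486a-5p, by 110, 125 and 114 counts in m1, m3 and m4, an SD of 7.77 around a mean excess of 116. If each read went to 1 of the names independently, counting error alone would give such a difference an SD of about 72.2 to 76.0, the square root of the summed counts. How reads matching both names were treated is not given in the sources used here. Another pair of names, let-7a-1-3p and let-7c-2-3p, had almost the same counts in every library. In m1, m3 and m4 these were 3015, 3386 and 3016 against 3015, 3387 and 3017. In r1, r2 and r4 they were 1310, 4705 and 4296 against 1309, 4705 and 4296. If that pair shared its reads, splitting them independently would not give counts this close. Whether the miR-486 names were counted like that pair was not tested. It is therefore uncertain whether miR-486 was higher in rat than in mouse.

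The 3p counts of miR-486 differed far more between the miR-486a and miR-486b names than the 5p counts did. Mouse miR-486a-3p had 66, 91 and 89 counts in m1, m3 and m4, and miR-486b-3p had 15, 15 and 21. The miR-486a name thus had 4.24 to 6.07 times the 3p counts of the miR-486b name. The 5p strand of miR-486a had 30.9 to 38.7 times the counts of its 3p strand, and that of miR-486b 140.1 to 195.6 times. These values depend on how shared reads were counted, which is not known for either strand. Whether the 3p counts reflect the output of each copy was not tested. No 3p strand of miR-486 was compared between the species.

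With the mouse miR-486 5p names summed, 2 of the 4 joined members were called lower in rat (miR-451 and miR-144-5p), 0 higher and 2 were not called. With either mouse name alone, miR-486 was called higher. Read against the 50.2% of all names called, such a count alone is not a result about the members. By normalized CPM the libraries of the species did not overlap for miR-451, miR-144-5p and, narrowly, miR-144-3p, beside 62% of all tested names in either direction and 30.2% with rat below mouse. For miR-144-3p this did not hold by CPM of all counts, and both miR-144 arms had entered the test through the mouse libraries.

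Within a species the members also varied differently. In rat, normalized miR-451 was 2.79 times as high in r2 as in r1, and miR-144-3p was 6.19 times as high in r2 as in r4. The value for miR-144-3p rests on 24 counts in r2 and 4 in r4, so it carries a wide counting error. For miR-486 the highest rat library was only 1.10 times the lowest. The median over all tested names was 1.54 times, and 1.65 times over the 128 names with a mean count of 5 to 200. In mouse the ranges were 1.29 (miR-451), 1.11 (miR-144-3p) and 1.10 (miR-486) times, beside a median of 1.15 over all tested names and 1.41 over those with a mean count of 5 to 200. Library r2 was the highest rat library for miR-451 and both miR-144 arms, and for 26.8% of all tested names; r1 was highest for 51%. By CPM of all counts rat miR-486 was 161, 291 and 260 in r1, r2 and r4, so the scaling decides whether r1 appears low for it.

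Ratios within a library do not depend on the scaling, and they separated miR-451 from miR-486. The summed miR-486 5p names had 16.6, 16.3 and 22.5 times the counts of miR-451 in m1, m3 and m4, and miR-486 had 243, 81.8 and 143.9 times in r1, r2 and r4. On the log2 scale the ratio of miR-451 to miR-486 was -4.19 ± 0.26 in mouse and -7.13 ± 0.77 in rat (n = 3 each, SD), a difference of -2.94 with no overlap. The two-sided exact permutation p was 0.1, the smallest that 3 against 3 libraries can give, and 0.1 after adjustment over 4 ratios. With miR-486a-5p or miR-486b-5p alone in mouse the difference was -3.97 or -3.91, so its direction did not rest on the join.

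The proportion of the cluster partners was lowest in r1 and r2. There were 15.7, 16.0 and 13.5 counts of miR-451 for each of miR-144-3p in m1, m3 and m4, and 4.0, 3.75 and 12.75 in r1, r2 and r4. Exact 95% intervals for these ratios ran from 8.49 to 26.1 over the mouse libraries, from 1.29 to 16.4 in r1, from 2.37 to 6.15 in r2, and from 4.69 to 48.6 in r4. The interval in r2, the rat library with the most reads of both, lies below all 3 mouse intervals, while those of r1 and r4 overlap them. The log2 ratio was 3.88 ± 0.14 in mouse and 2.43 ± 0.95 in rat (n = 3 each, SD), a difference of -1.45 (exact permutation p = 0.1, two-sided).

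The ratio of miR-451 to miR-23a-3p was lower in each rat library than in each mouse library. Red cells hold little miR-23a-3p, which serves as the reference when haemolysis is graded in plasma. There were 16.8, 19.7 and 23.1 counts of miR-23a-3p for each of miR-451 in mouse (m1, m3, m4) and 234, 94.1 and 166 in rat (r1, r2, r4). The log2 ratio differed by -2.95 between the species (exact permutation p = 0.1, two-sided), and miR-23a-3p itself differed by 0.10 ± 0.12 (SE; adjusted p = 0.527, edgeR).

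**Figure D3:**
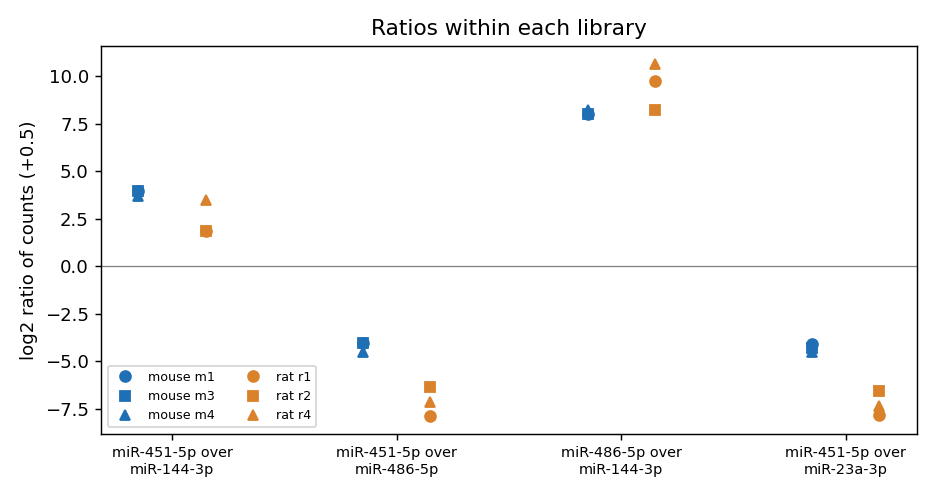
Log2 ratio of counts (0.5 added to each) within each library for 4 pairs of miRNAs, mouse in blue and rat in orange, 1 point per library. The ratio of miR-451-5p to miR-486-5p lies between -4.49 and -4.02 in mouse and between -7.88 and -6.35 in rat.

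Other miRNAs that are abundant in red blood cells moved both ways. Of 14 on that list, all tested, 5 were called higher in rat, 5 lower and 4 not, with a median log2 difference of 0.17 beside 0.11 over all names. Over all tested names 26% were called higher and 24.2% lower. Scaled by library totals alone 3 were higher and 1 lower. Leaving out 1 library gave 1 (without m3 or m4) to 7 (without r1) higher and 4 or 5 lower; without m1 2 were higher, and without r2 or r4 3.

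The 4 most abundant of these were miR-96-5p, which photoreceptors make, miR-25-3p, miR-185-5p and miR-92a-3p. Here miR-92a-3p, of the miR-17-92 cluster, fell by 0.79 ± 0.11 on the log2 scale (adjusted p = 0.00104, edgeR), a call lost with library totals alone. The cluster paralog miR-25-3p rose by 0.51 ± 0.18 (adjusted p = 0.0442, edgeR), a call lost without m1, m3 or m4. Of the uncalled members, miR-93-5p and miR-107-3p were called higher without r1. The differences of miR-96-5p (0.17 ± 0.16) and miR-185-5p (0.16 ± 0.15) were not called. The 4 most abundant are made in many cell types, and their levels were far above that of miR-451. The lowest library had 9556 CPM of all counts for miR-96-5p and 226 for miR-92a-3p. The largest differences on the list were those of miR-363-3p (7.61 ± 0.45, adjusted p = 7.54e-06, edgeR) and miR-484 (-3.15 ± 0.15, adjusted p = 3.11e-06, edgeR). Both calls held with library totals alone, and miR-484 fell further than miR-451. In mouse miR-363-3p had only 18, 23 and 19 counts in m1, m3 and m4. The part of blood in the miRNAs of this list was not tested.

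The tested white blood cell miRNAs had log2 differences from -0.61 (miR-155-5p) to 0.42 (miR-223-3p). Of the 4, 0 rose, miR-155-5p fell (-0.61 ± 0.20, adjusted p = 0.0411, edgeR) and 3 were not called, beside 50.2% called over all names. The fall of miR-155-5p was not called with library totals alone. The number lower was 0 without m1, m3, r2 or r4, 1 without m4 and 2 without r1. The lymphocyte miRNA miR-150-5p differed by 0.04 ± 0.12 (adjusted p = 0.811, edgeR). The myeloid miR-223-3p was nearly absent, with 2, 15 and 8 counts in m1, m3 and m4 and 7, 12 and 16 in r1, r2 and r4. Under their own names in each table, the pan-leukocyte miR-142-5p had 137 to 201 counts in mouse and 91 to 222 in rat, with overlap. Its other arm, miR-142-3p, had 29, 40 and 29 counts in m1, m3 and m4 and 49, 79 and 84 in r1, r2 and r4, higher in each rat library. Neither arm was in the tested table. Summed over the list the level was 134 to 163 CPM of all counts in mouse and 107 to 171 in rat.

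Markers of the vessels that carry blood through the retina were next. The endothelial miR-126a-3p had a log2 difference of -0.10 ± 0.13 (adjusted p = 0.570, edgeR), and of the 4 platelet and endothelial miRNAs 0 were called either way by edgeR or by DESeq2 (50.2% of all names were called by edgeR), and 0 had an unadjusted p under 0.05 in edgeR. These 4 include miR-223-3p, which was also among the 4 tested white blood cell miRNAs. The list summed to 1657 to 2020 CPM of all counts in mouse and 1364 to 2374 in rat. Of 3 tested miRNAs of the vessel wall, miR-143-3p rose (0.98 ± 0.31, adjusted p = 0.0346, edgeR), miR-199a-3p fell (-1.14 ± 0.17, adjusted p = 0.00116, edgeR) and miR-214-3p was not called. The smooth muscle miR-145, not in the tested table, had 25.0 to 27.2 CPM of all counts in mouse (miR-145a-5p) and 29.2 to 67.4 in rat (miR-145-5p), higher in each rat library. The call of miR-143-3p was lost without m1, m3 or m4, and that of miR-199a-3p with library totals alone. This list summed to 2719 to 3213 CPM in mouse and 5393 to 6521 in rat.

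The liver miRNA miR-122-5p, which reaches other tissues with plasma, was lower in rat as miR-451 was. It had 105, 121 and 108 counts in m1, m3 and m4 and 23, 19 and 16 in r1, r2 and r4, with no overlap. The log2 difference was -2.48 ± 0.37 (SE; adjusted p = 0.00122, edgeR), and -3.01 without r1. Within the rats its order by count was r1, r2, r4, unlike that of miR-451, which was highest in r2. Whether plasma or cells of other tissues had a part in these differences was not tested.

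Muscle is the other main source of miR-486, and its miRNAs were present in both species. Mouse miR-1a-3p had 23902, 23497 and 17541 counts in m1, m3 and m4, more than either miR-486 name. The muscle miRNA miR-133a-3p had 137, 132 and 94 counts in m1, m3 and m4 and 27, 74 and 86 in r1, r2 and r4 (log2 difference -1.08 ± 0.25, adjusted p = 0.00838, edgeR; not called with library totals alone or without m1). The skeletal miR-206-3p had 449 to 548 counts in mouse and 680 to 825 in rat (0.61 ± 0.25, adjusted p = 0.0780, edgeR). It was called higher without r4 and with library totals alone. The list summed to 642 to 883 CPM of all counts in mouse and 44.3 to 66.9 in rat. That sum leaves out the rat name miR-1b, with 8541, 7024 and 8074 counts, so the levels of miR-1 cannot be compared by name. The part of muscle in miR-486 was not tested.

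**Figure D4:**
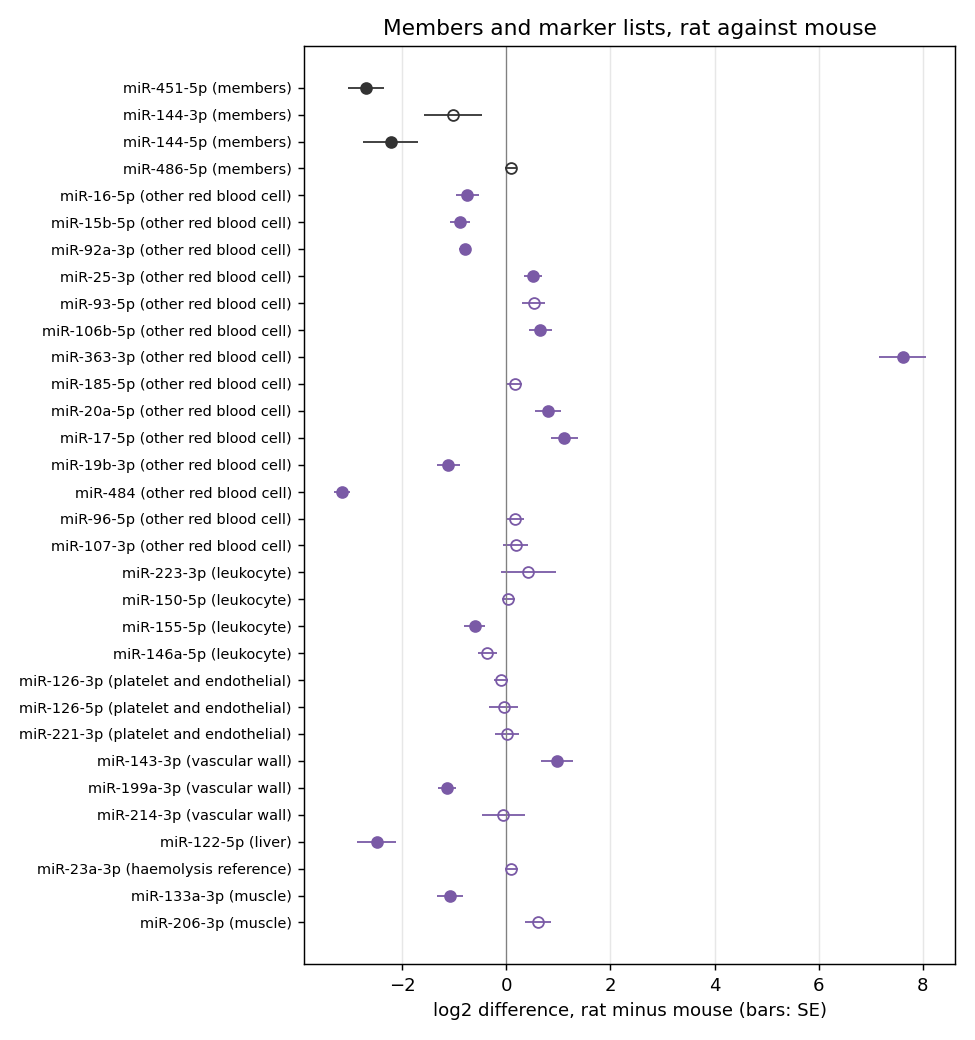
Log2 difference between rat and mouse (rat minus mouse, bars SE) for the 4 joined members, in dark grey, and the tested miRNAs of the marker lists, in purple; filled points were called at an adjusted p under 0.05 (edgeR) and open points were not. The value of miR-451-5p is -2.70 and that of miR-122-5p is -2.48, while miR-126-3p and miR-150-5p lie near 0. Other white blood cell and vessel wall miRNAs were called, with miR-155-5p (-0.61) and miR-199a-3p (-1.14) lower and miR-143-3p (0.98) higher in rat.

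The names whose pattern over the 6 libraries was most like that of the members were found among 251 joined names with at least 100 counts in every library. Likeness was the root mean square difference of log2(normalized CPM + 0.1) after each species was centred on its own mean, over 6 libraries. For miR-451 the nearest were miR-708-5p (0.22), let-7c-2-3p (0.23), let-7a-1-3p (0.23), miR-93-5p (0.24) and miR-384-5p (0.24), beside a median of 0.49 over the candidates. The let-7 names had almost the same counts in every library and are not separate neighbours. Among the rat libraries all of these names were lowest in r1 and highest in r2, as miR-451 was. For miR-144-3p the nearest, again miR-708-5p, was at 0.46 beside a median of 0.65, and miR-125a-5p, miR-872-3p, let-7e-3p and miR-181c-5p followed at 0.54 to 0.56.

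The neighbours of miR-486 were closer, and so was its median candidate. They were miR-30b-3p (0.026), miR-22-3p (0.026), miR-423-3p (0.032), miR-150-5p (0.032) and let-7g-5p (0.043), beside a median of 0.19 over 250 candidates. None of the 5 nearest names was shared between miR-486 and the members of the cluster, which says little for 5 names out of 250 candidates. With 3 libraries per species these likenesses are descriptions of these libraries.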

How the data were processed

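Per the labels' protocols, the RNA came from a miRNeasy mini kit, and small RNA libraries (Illumina) gave single reads of 50 bases. The values are raw counts for each mature miRNA name, which the authors deposited as 1 table per species. No aligner, trimming or annotation release, and no rule for reads shared by names, is given in the sources used here. The species prefix was dropped and identical names were joined (542). A pair was added by hand for miR-451 (mouse miR-451a with rat miR-451-5p), and another for miR-486 (mouse miR-486a-5p plus miR-486b-5p with rat miR-486), 544 names in all. edgeR 4.0.16 (R 4.3.3) was used with filterByExpr (400 names kept), TMM factors and the quasi-likelihood F test with species as the only term. Within-library ratios used log2 of counts + 0.5 and an exact permutation test. On simulated counts with 200 of 400 names changed (10 runs), 87.3% of 2-fold and 99.3% of 4-fold changes were recovered. Of the calls 2.69% were false. The simulation left out the spread of the TMM factors and averaged over names of all levels. Its recovery therefore does not describe names with few counts, such as miR-144.

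Members and lists were chosen with earlier results of these data known. The rule for named miRNAs took every member, the 5 nearest patterns of 3 members and up to 4 of the most abundant names per list. Among leukocyte miRNAs, miR-223-3p, both miR-142 arms and miR-155-5p were named after their values were seen. The same holds for miR-93-5p, miR-107-3p and the miR-129 3p names. DESeq2 1.42.0, other scalings, other joins and leaving out each library were the alternatives. The arm test with limma was not run for miR-144, which had too few counts.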

Additional observations from a re-analysis of the deposited data

How the results depend on the processing

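The fall of miR-451 kept its direction and its call under the 10 alternatives run, from -2.74 to -2.31 on the log2 scale over other scalings, filter and tool, and from -3.22 to -2.46 when 1 library was left out. With miR-144-3p the range was -1.06 to -0.65 over the former, without a call, and -2.24 (called, without r2) to -0.52 (without r4) over the latter. For miR-144-5p the call was lost with library totals alone (-1.86, adjusted p = 0.0524, edgeR) and with the totals of the whole species tables (-1.97, adjusted p = 0.0545, edgeR); leaving out 1 library gave -2.94 to -1.89, called each time. For miR-486 leaving out 1 library gave 0.048 to 0.11, and joining 1 mouse name gave 1.09 (miR-486a-5p) or 1.03 (miR-486b-5p), called higher. Chosen after seeing the data, the same joins with library totals alone gave 1.43 and 1.37, and miR-486a-5p without r1 gave 1.08, all called. The ratio differences (rat minus mouse, log2) ranged over left-out libraries from -1.999 to -1.18 (miR-451 over miR-144-3p), -3.33 to -2.56 (miR-451 over miR-486), 0.93 to 2.15 (miR-486 over miR-144-3p) and -3.29 to -2.66 (miR-451 over miR-23a-3p), and none changed sign with a pseudocount of 5. Of all 400 names 201 were called, 104 higher and 97 lower; leaving out 1 library gave 153 to 293 (77 to 150 higher, 74 to 143 lower). With library totals alone 171 were called, 74.3% of them higher against 51.7%, and 44 lower; with whole-table totals 45 were lower.

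No paired analysis was possible because the count columns carry numbers that do not match the replicate numbers of the labels. The arm ratio of miR-144 has no alternative for want of counts. At this depth 3 counts correspond to about 0.1 CPM, so the rat levels of miR-144 are known only within several-fold.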
